A study of Mus musculus with 35 samples.

Results

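A set of 10 genes that NF-κB switches on and that restrain it, extend it or carry its effects were followed across 35 arrays of mouse lung: Nfkbia, Nfkbiz, Nfkb1, Nfkb2, Relb, Tnfaip3, Tnfaip2, Birc3, Icam1 and Tifa. They were taken as all probes whose RefSeq accession in the scanner files carries one of these 10 symbols, which gave 13 of the 55681 probes on the array. All 10 genes had a probe well above background, 12 of their 13 probes were tested, and they entered the fit among 25534 features. The mice were female C57BL/6 animals of 5 to 7 weeks, given 1 intratracheal instillation in 40 µl, and the lungs were taken 24 h later. The 6 exposed groups received 18 or 54 µg of 1 of the nanomaterials that carry the code names NRCWE-043, NRCWE-044 and NRCWE-045. The control group is given a dose of 0 µg, and the labels do not state what else the control mice received. Each group had 5 arrays, each of RNA from a random section of frozen lung, and nothing in the labels states that the 5 came from separate animals, so a p-value here speaks for the variation among arrays, which may be technical.

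NF-κB is a family of dimeric transcription factors that inhibitor proteins hold in the cytoplasm of resting cells. When receptors for tumour necrosis factor, interleukin 1 or microbial products are engaged, kinases mark the inhibitors for destruction and the dimers enter the nucleus. Among the genes they then transcribe are the inhibitors themselves, further subunits and enzymes that take the receptor signal apart, so the pathway shuts itself down. In lung, epithelium, endothelium and macrophages all use it to recruit leukocytes.

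At 54 µg, the genes called against control with at least 1 material were Nfkb2, Relb, Tnfaip3, Birc3 and Tifa, and all were higher. Icam1 was called only against the lower dose, with NRCWE-044. Counts with the share of all features are given for each comparison below. The subunit gene Nfkb2 was higher with all 3 materials (1.58-fold with NRCWE-043, 1.84-fold with NRCWE-044 and 1.65-fold with NRCWE-045). Tifa, an adaptor that links bacterial sugar sensing to the pathway, was 2.35-fold higher with NRCWE-043 and not called with the other materials. Relb was called with NRCWE-043, and Tnfaip3 and Birc3 were called with NRCWE-044. Called means an adjusted p under 0.05 in a limma fit over all 35 arrays and all features.

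Read against all features, 3 of 10 members were called higher with 54 µg NRCWE-043, where 5.35% of features were. With 54 µg NRCWE-044 it was 3 of 10 members against 3.94% of features, and with 54 µg NRCWE-045 it was 1 of 10 members against 0.29% of features. No member was called lower at 54 µg. Counted by arrays, 2, 4 and 2 members lay higher on every array of 54 µg NRCWE-043, NRCWE-044 and NRCWE-045 than on every control, where 4.49%, 3.76% and 1.68% of features did. At 18 µg, 1 member was called higher with NRCWE-043, against 1.34% of features, and it was Tifa. No member was called with 18 µg NRCWE-044 or 18 µg NRCWE-045, where limma called 0% of all features higher as well. At an unadjusted p under 0.05, 0 and 4 members passed in those groups, where 10.8% and 2.79% of all features did. The median member change at 54 µg was 0.28 with NRCWE-043, 0.33 with NRCWE-044 and 0.25 with NRCWE-045 on the log2 scale, where the median of all features was 0.01 each time. At 18 µg the member medians were 0.21, 0.02 and 0.19 in the same order of materials.

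Values are log2 ratios of lung RNA (Cy5) over a common reference RNA (Cy3) pooled from 11 mouse cell lines, so a negative value means less than in the reference and levels of different genes cannot be set against each other. On each array, between 42.8% and 69.3% of probes were well above background in the lung channel. The highest shares were on replicate 24 of 54 µg NRCWE-044 (69.31%) and replicate 23 of 18 µg NRCWE-044 (68.47%). Their median lung signals over all probes were 224.5 and 334, against at most 131 on the other arrays. The part of this in the member changes was not tested. Control replicate 7 had a Tifa value inside the range of NRCWE-043, and whether the library carries the right label was not tested. Control replicate 29 was the highest control for Nfkb2, Relb, Tnfaip3 and Nfkbia. Both are among the 5 controls that all 6 comparisons with control share. Member calls that changed when 1 of them was left out are given below. For genes outside the member list, calls without these controls are not given. The mean log2 ratio of 8 heart muscle markers ran from 0.06 to 3.62 over the arrays, with control replicate 29 at the top, and 0 of the 8 markers were called between any groups. That of 6 adipose markers ran from 0.37 to 5.12, against 0.87 to 1.72 in controls. It was highest on replicates 4 (5.12) and 34 (4.36) of 54 µg NRCWE-044 and replicate 9 (4.25) of 54 µg NRCWE-043. Of these 6 markers, 0 were called between any groups, and the part of adipose tissue in the member changes was not tested. Slide and scan day could be set beside the groups, since 4 of the 7 slides held controls.

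**Figure D1:**
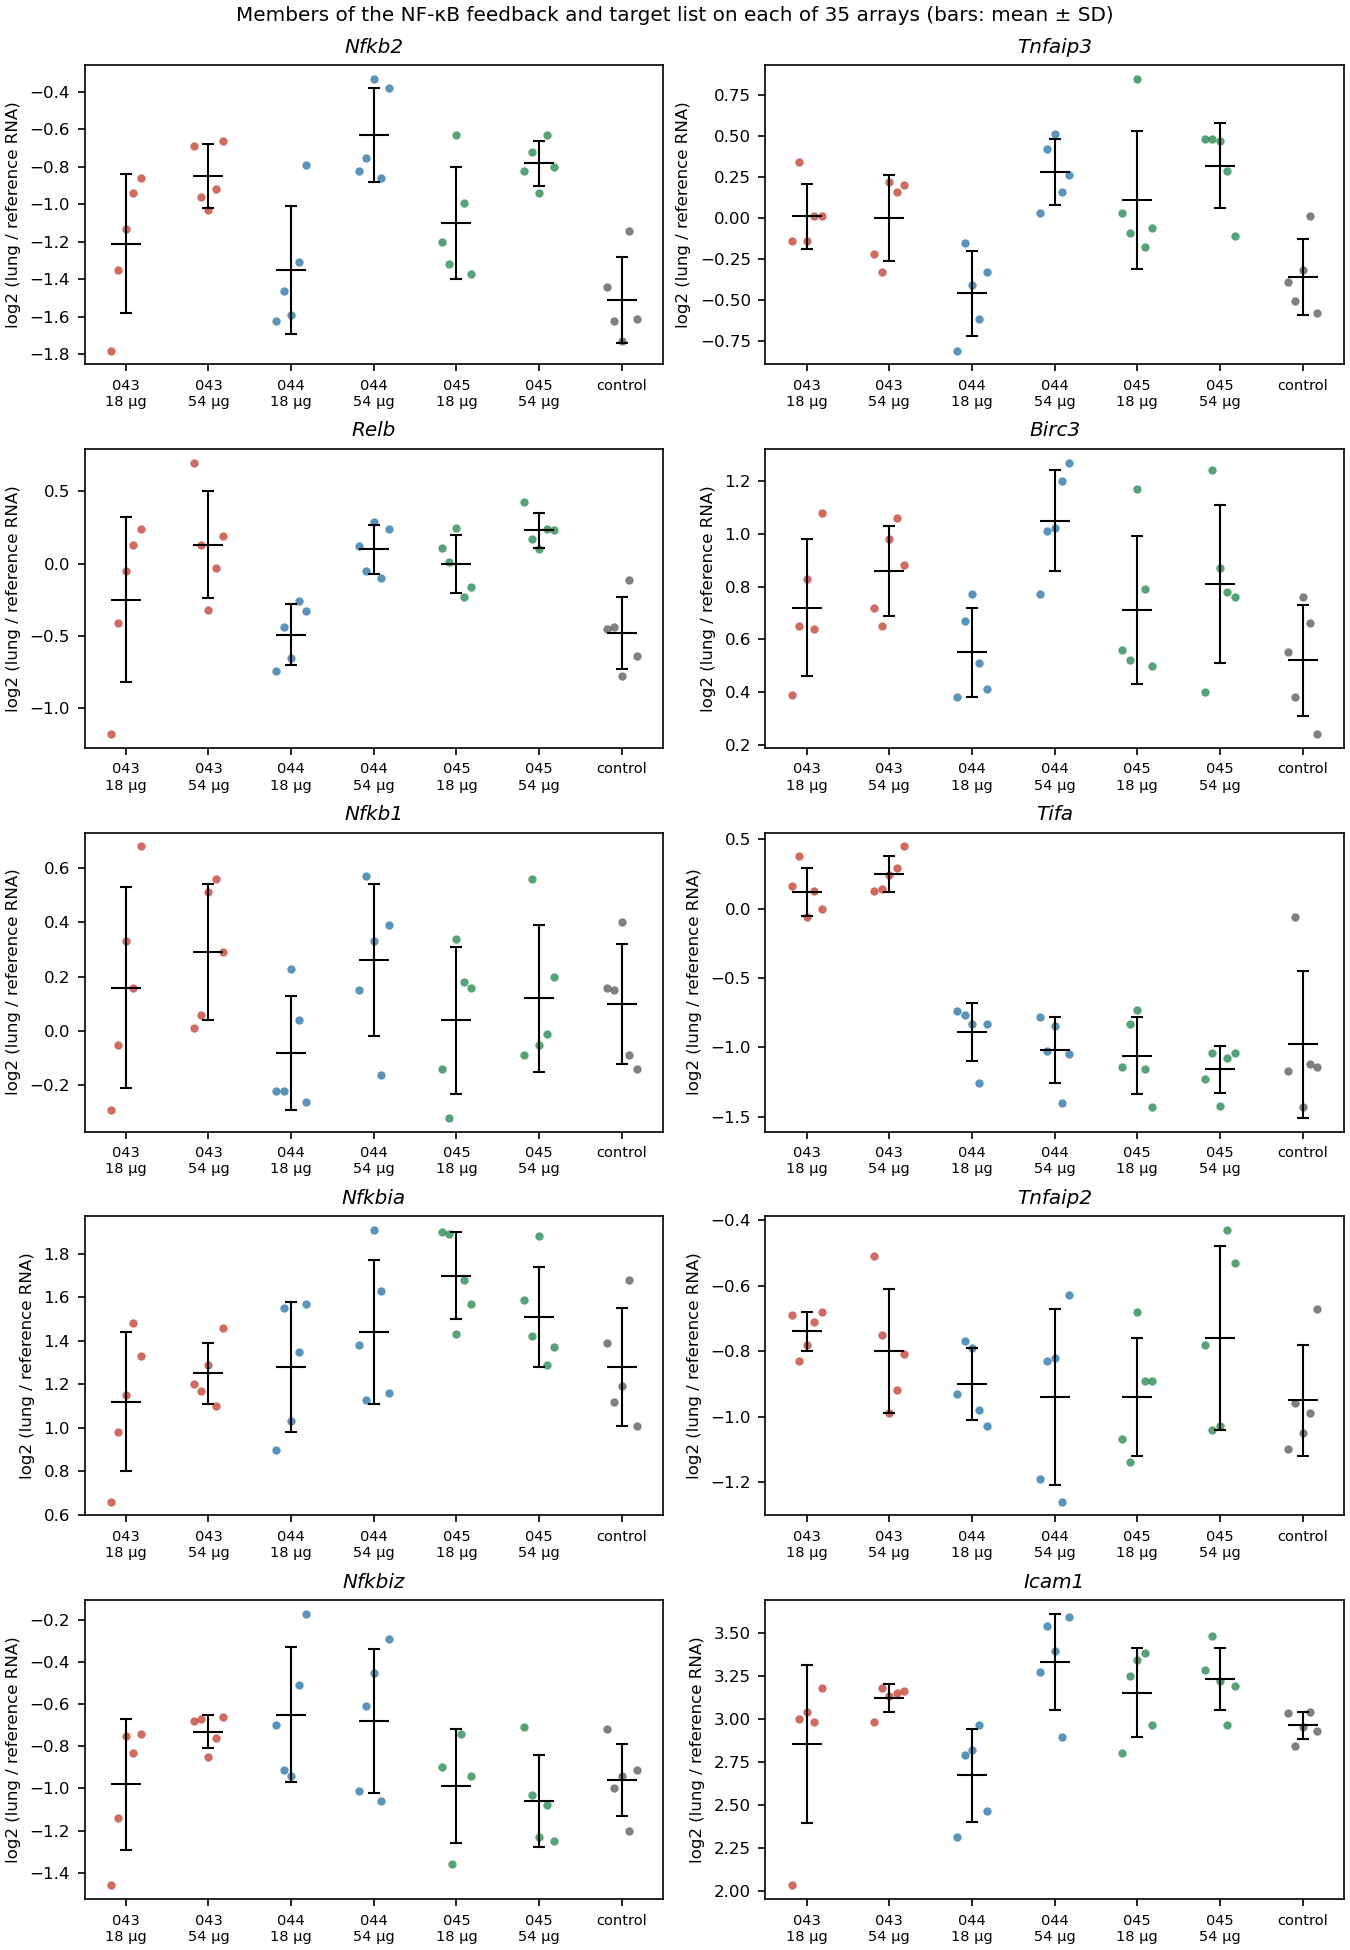
Log2 ratio of lung over reference RNA for each of the 10 genes, with 1 point per array, 7 groups of 5 arrays along the horizontal axis and bars at the mean ± SD. Nfkb2 lies higher in all 3 groups of 54 µg than in controls, while Tifa is high on the 10 NRCWE-043 arrays and on 1 control.

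Promoter windows of members called against control, and of Nfkbia, the classical target among them, are printed to show where letters of a κB pattern do and do not occur. The RefSeq table (GRCm38.p6) held windows of 250 bases before to 50 after the start for 7 of the 10 members, without Nfkbiz, Nfkb1 and Relb. Capitals mark matches on either strand to the 10-base pattern of GGG, 2 bases of any kind, TT, 1 base of any kind and CC, a form of the κB site chosen after the windows had been read. It occurs in 4.79% of all 32851 windows of this length and in a window of 5.48% of all 27025 genes in the table. Among the 7 members with a window, 4 have a match, namely Nfkb2, Tnfaip3, Nfkbia and Tifa. Since the pattern was chosen with these windows known, that count cannot be compared with the shares of all windows and genes. No match was found in the windows of Birc3, Icam1 and Tnfaip2, which says only that these letters are not there.
Nfkb2, first start, chr19:46304487-46304786, + strand: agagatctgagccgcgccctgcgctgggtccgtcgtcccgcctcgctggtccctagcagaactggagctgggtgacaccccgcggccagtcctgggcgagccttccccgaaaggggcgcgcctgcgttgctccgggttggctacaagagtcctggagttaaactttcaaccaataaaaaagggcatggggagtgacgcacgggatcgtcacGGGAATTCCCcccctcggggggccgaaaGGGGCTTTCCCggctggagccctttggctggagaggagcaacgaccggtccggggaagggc
Nfkb2, second start, chr19:46305445-46305744, + strand: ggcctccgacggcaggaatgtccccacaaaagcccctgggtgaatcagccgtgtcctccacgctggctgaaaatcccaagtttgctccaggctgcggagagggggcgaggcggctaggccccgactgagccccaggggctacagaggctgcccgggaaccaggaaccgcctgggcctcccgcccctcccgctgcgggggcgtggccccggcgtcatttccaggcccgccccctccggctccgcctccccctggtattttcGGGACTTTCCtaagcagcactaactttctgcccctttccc
Tnfaip3, first start, chr10:19015361-19015660, - strand: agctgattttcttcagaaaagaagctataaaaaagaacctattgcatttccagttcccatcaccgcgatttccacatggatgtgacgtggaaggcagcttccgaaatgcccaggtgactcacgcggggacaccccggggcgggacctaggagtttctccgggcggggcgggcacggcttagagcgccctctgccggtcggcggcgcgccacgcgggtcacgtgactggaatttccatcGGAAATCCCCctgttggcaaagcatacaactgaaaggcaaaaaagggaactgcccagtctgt
Nfkbia, chr12:55492598-55492897, - strand: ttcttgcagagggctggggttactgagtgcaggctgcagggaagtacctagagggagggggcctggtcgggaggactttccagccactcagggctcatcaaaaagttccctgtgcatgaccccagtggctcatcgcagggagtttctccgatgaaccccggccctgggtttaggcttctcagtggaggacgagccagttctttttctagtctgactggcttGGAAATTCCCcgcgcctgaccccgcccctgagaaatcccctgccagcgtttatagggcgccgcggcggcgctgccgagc
Tifa, second start, chr3:127790407-127790706, + strand: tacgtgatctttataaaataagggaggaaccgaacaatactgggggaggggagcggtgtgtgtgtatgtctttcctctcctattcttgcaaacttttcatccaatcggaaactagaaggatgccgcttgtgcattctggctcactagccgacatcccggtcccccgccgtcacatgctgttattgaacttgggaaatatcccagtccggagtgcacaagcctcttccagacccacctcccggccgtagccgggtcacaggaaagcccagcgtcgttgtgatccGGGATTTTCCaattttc
Birc3, chr9:7873121-7873420, - strand: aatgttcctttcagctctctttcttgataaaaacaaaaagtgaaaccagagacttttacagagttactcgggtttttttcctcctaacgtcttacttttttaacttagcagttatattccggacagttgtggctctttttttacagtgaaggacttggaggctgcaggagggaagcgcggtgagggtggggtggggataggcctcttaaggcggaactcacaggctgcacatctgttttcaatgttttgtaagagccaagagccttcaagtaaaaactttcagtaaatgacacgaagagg
In the first Nfkb2 window, the palindrome that begins 39 bases before the start matches on both strands, and the longer run of capitals holds 2 overlapping matches that begin 11 and 10 bases before it. The second Nfkb2 window has 1 match that begins 10 bases after its start, and another window overlapping it holds the same match. The Tnfaip3 and Nfkbia matches begin 12 and 29 bases before the start and read on the opposite strand. The Tifa match begins 33 bases after the start of its second window, and its first window holds none.

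Among the subunits, Nfkb2 showed the broadest change. It encodes a precursor that is cut to the subunit that partners RelB in the slower, non-canonical branch of the pathway. Nfkb2 gave -0.69, -0.96, -1.03, -0.92 and -0.66 on the 5 arrays of 54 µg NRCWE-043, -0.82, -0.75, -0.33, -0.86 and -0.38 with 54 µg NRCWE-044, and -0.82, -0.72, -0.94, -0.63 and -0.80 with 54 µg NRCWE-045. The controls gave -1.44, -1.62, -1.73, -1.14 and -1.61. All 15 arrays of the 54 µg groups lay above all 5 controls. The log2 change was 0.66 (SE 0.16) with NRCWE-043 (adjusted p = 0.008), 0.88 (SE 0.16) with NRCWE-044 (adjusted p = 0.00096) and 0.73 (SE 0.16) with NRCWE-045 (adjusted p = 0.039). At 18 µg the means were -1.21 ± 0.37 with NRCWE-043, -1.35 ± 0.34 with NRCWE-044 and -1.1 ± 0.30 with NRCWE-045, against -1.51 ± 0.23 in controls (SD, n = 5 each), and each of these groups overlapped the controls. Within slides that held both groups, Nfkb2 was higher on 2 of 2 slides with 54 µg NRCWE-043, 3 of 3 with NRCWE-044 and 4 of 4 with NRCWE-045. The largest of the 18 µg differences was 0.41, with NRCWE-045 (adjusted p = 1). In bulk lung, more cells of a type and more RNA per cell cannot be told apart. With NRCWE-045 the Nfkb2 call was lost in 8 of the 10 fits that each leave out 1 array (adjusted p = 0.12 without control replicate 7), with scale normalization (adjusted p = 0.063) and with the Cy5 channel alone (adjusted p = 0.1). Centring each array on its median in place of loess ended every call of a member other than Tifa.

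Relb, the partner subunit, ran close to Nfkb2. It gave 0.70, 0.13, -0.32, -0.03 and 0.19 with 54 µg NRCWE-043, 0.12, -0.05, 0.29, -0.10 and 0.24 with 54 µg NRCWE-044, and 0.43, 0.17, 0.10, 0.24 and 0.23 with 54 µg NRCWE-045. The controls gave -0.45, -0.44, -0.78, -0.11 and -0.64. With 54 µg NRCWE-044 and NRCWE-045 every array lay above every control, while 1 array of NRCWE-043 fell among them. The test nevertheless called only NRCWE-043 (log2 change 0.62, SE 0.19, adjusted p = 0.028), and the changes with NRCWE-044 (0.59, SE 0.19, adjusted p = 0.055) and NRCWE-045 (0.72, SE 0.19, adjusted p = 0.079) were of like size. A second Relb probe gave 0.54, 0.56 and 0.69 for the same 3 groups, with adjusted p = 0.038, 0.046 and 0.068 in the limma fit over all probes. Between materials at 54 µg the largest Relb difference, NRCWE-045 minus NRCWE-044, was 0.13 with a 95% interval from -0.24 to 0.51. Relb in NRCWE-043 lost its call with slide (adjusted p = 0.074) or scan day (adjusted p = 0.054) as a block and in 5 of 10 fits that each leave out 1 array, at worst without NRCWE-043 replicate 3 (0.48, adjusted p = 0.11). Without control replicate 29, limma called Relb with NRCWE-044 and with NRCWE-045 too (adjusted p = 0.032 each).

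Nfkb1, which encodes the precursor of the classical DNA-binding subunit, was not called in any of the 15 comparisons, although with scan day as a fixed block it was between doses of NRCWE-044 (0.32, adjusted p = 0.046). Its means at 54 µg were 0.29 ± 0.25 with NRCWE-043, 0.26 ± 0.28 with NRCWE-044 and 0.12 ± 0.27 with NRCWE-045, against 0.10 ± 0.22 in controls (SD, n = 5 each), so all groups overlapped. The upper ends of the 95% intervals of its change at 54 µg were 0.53, 0.50 and 0.36. A second Nfkb1 probe was above background on 0 of the 35 arrays.

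Neither inhibitor was called against control. Nfkbia encodes the IκBα protein, the fast inhibitor of the classical dimers. Its 54 µg means were 1.25 ± 0.14 with NRCWE-043, 1.44 ± 0.33 with NRCWE-044 and 1.51 ± 0.23 with NRCWE-045, against 1.28 ± 0.27 in controls (SD, n = 5 each), and none passed (adjusted p = 0.95, 0.65 and 0.75 by limma). Its only call lay between materials at 18 µg. There NRCWE-045 gave 1.90, 1.89, 1.43, 1.68 and 1.57 and NRCWE-043 gave 0.66, 0.98, 1.15, 1.48 and 1.33, which overlap by 1 array on each side. The difference was 0.58 (SE 0.16, adjusted p = 0.02). It dropped to 0.46 without NRCWE-043 replicate 5 (adjusted p = 0.091) and to 0.37 with the processed signals (adjusted p = 0.17). Nfkbiz encodes an atypical nuclear IκB protein that many secondary targets need. It was not called anywhere, with 54 µg means of -0.73 ± 0.08 with NRCWE-043, -0.68 ± 0.34 with NRCWE-044 and -1.06 ± 0.22 with NRCWE-045, against -0.96 ± 0.17 in controls (SD, n = 5 each). One Nfkbiz value, in 18 µg NRCWE-045, was missing because its spot was marked as an outlier, so that group has n = 4.

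Tnfaip3 encodes A20, a ubiquitin-editing enzyme that ends signalling at the receptors. It gave 0.03, 0.42, 0.51, 0.16 and 0.26 with 54 µg NRCWE-044, 0.48, 0.48, 0.47, 0.29 and -0.11 with 54 µg NRCWE-045, and -0.22, -0.33, 0.22, 0.16 and 0.20 with 54 µg NRCWE-043. The controls gave -0.39, -0.51, -0.32, 0.01 and -0.58. Every NRCWE-044 array lay above every control, 4 of 5 NRCWE-045 arrays did, and the NRCWE-043 arrays split into 3 above and 2 among the controls. The change was 0.63 (SE 0.16, adjusted p = 0.016) with NRCWE-044, and 0.68 (SE 0.16, adjusted p = 0.059) with NRCWE-045. With NRCWE-043 it was 0.36 (SE 0.16, adjusted p = 0.17). Against the low dose of the same material, Tnfaip3 in 54 µg NRCWE-044 was higher by 0.74 (SE 0.16, adjusted p = 0.0043), and the 18 µg arrays lay at -0.46 ± 0.26 (SD, n = 5). Without control replicate 7 the NRCWE-044 change was 0.59 and no longer called (adjusted p = 0.05), and without control replicate 29 the NRCWE-045 change was 0.77 and called (adjusted p = 0.021). The NRCWE-045 change was also called with slide (adjusted p = 0.045) or scan day (adjusted p = 0.038) as a fixed block and with slide as a random block (adjusted p = 0.027).

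Birc3 encodes a ubiquitin ligase of the tumour necrosis factor receptor complex that also keeps the kinase of the non-canonical branch low. It gave 0.77, 1.01, 1.02, 1.20 and 1.27 with 54 µg NRCWE-044, against 0.55, 0.38, 0.76, 0.66 and 0.24 in controls. These groups do not overlap, although the lowest NRCWE-044 array and the highest control almost meet. The change was 0.54 (SE 0.14, adjusted p = 0.02), and 0.51 (SE 0.14, adjusted p = 0.027) against 18 µg of the same material. With 54 µg NRCWE-043 and NRCWE-045 the changes were 0.34 (adjusted p = 0.14) and 0.29 (adjusted p = 0.54). The Birc3 call against control was lost without control replicate 7 (0.50, adjusted p = 0.06), without control replicate 30 (0.47, adjusted p = 0.061) and without NRCWE-044 replicate 34 (0.48, adjusted p = 0.079). The Birc3 dose difference was lost in 5 of 10 fits that each leave out 1 array, at worst without NRCWE-044 replicate 34 (0.45, adjusted p = 0.097).

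Tifa was called in both NRCWE-043 groups and in no other group against control. Its product is a forkhead-associated adaptor that assembles TRAF proteins once the kinase ALPK1 has sensed a bacterial sugar. Tifa gave 0.13, 0.14, 0.24, 0.29 and 0.45 with 54 µg NRCWE-043 and 0.16, 0.38, -0.06, 0.13 and 0.00 with 18 µg NRCWE-043. The controls gave -1.17, -0.06, -1.43, -1.12 and -1.14. The 10 NRCWE-043 arrays therefore sat between -0.06 and 0.45, as did control replicate 7 at -0.06, while the other controls lay between -1.43 and -1.12. The change was 1.23 (SE 0.17, adjusted p = 2.5e-05) at 54 µg and 1.1 (SE 0.17, adjusted p = 0.00025) at 18 µg. With only the compared groups in the fit, the 18 µg call was lost (adjusted p = 0.1). The 2 doses differed by 0.13 (95% interval -0.21 to 0.47).

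With NRCWE-044 and NRCWE-045, Tifa was not called against control, with changes of -0.04 and -0.18 at 54 µg that were 0.19 and 0.05, also uncalled, without control replicate 7. Over their 20 arrays it ran from -1.43 to -0.73, and no array of theirs overlapped any NRCWE-043 array. NRCWE-044 was lower than NRCWE-043 by 1.27 on the log2 scale at 54 µg, a difference of -1.27 (SE 0.17, adjusted p = 2.9e-06), and the difference was -1.01 (SE 0.17, adjusted p = 0.00011) at 18 µg. NRCWE-045 differed from NRCWE-043 by -1.41 (SE 0.17, adjusted p = 2.1e-06) and -1.18 (SE 0.17, adjusted p = 1.4e-05) at 54 and 18 µg. These differences do not use the control values, but their SE and adjusted p draw on a variance shared by all 35 arrays, controls included. They kept their direction within each slide that held both materials, from -1.30 to -0.92 on 3 slides for NRCWE-044 and from -1.36 to -1.31 on 2 slides for NRCWE-045 at 54 µg, and were called under each of 21 processing alternatives. With the processed signals they were larger at 54 µg, at -1.91 with NRCWE-044 and -2.15 with NRCWE-045, and at 18 µg, at -1.46 and -1.86. The changes with NRCWE-043 against control were then 1.98 at 54 µg and 1.77 at 18 µg. At 18 µg the within-slide values ran from -1.18 to -0.77 and from -1.29 to -0.67, each on 4 slides. Without control replicate 7, the Tifa change with NRCWE-043 was 1.46 (adjusted p = 2.9e-09) at 54 µg and 1.33 (adjusted p = 2.6e-08) at 18 µg. Among the other 9 members, control replicate 7 lay outside the range of the other controls for 1, Icam1, at 2.84 against 2.93 to 3.04. Tifa was well above background on 34 of 35 arrays, but its probe was the dimmest of the tested member probes. Its median lung signals ran from 87 to 554 (median 175). The lowest of them lay within the 73.5 to 106 of the second Nfkb1 probe, which was above background on 0 arrays. How far this shapes the size of the Tifa change was not tested.

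**Figure D2:**
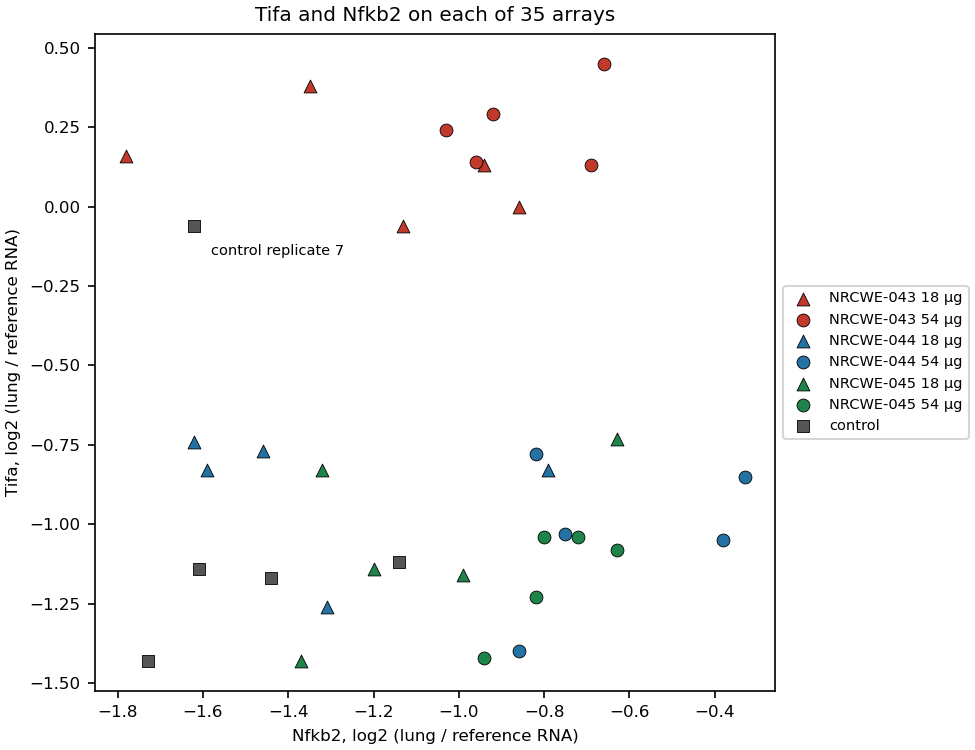
Tifa (vertical) against Nfkb2 (horizontal), both as log2 ratio of lung over reference RNA, with 1 point per array and a colour per material. The NRCWE-043 arrays and control replicate 7 lie at -0.06 or higher for Tifa and all others at -0.73 or lower, while 54 µg arrays of all 3 materials lie at -1.03 or higher for Nfkb2. Some 18 µg arrays also lie in that Nfkb2 range, with highest values of -0.86, -0.79 and -0.63 for the materials in numeric order.

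A pair of effector genes completes the list. Icam1 encodes an adhesion molecule that leukocytes bind on activated endothelium and epithelium. It gave 3.27, 3.54, 3.39, 2.89 and 3.59 with 54 µg NRCWE-044, against 2.31, 2.79, 2.82, 2.96 and 2.46 with 18 µg NRCWE-044, which overlap by a single array on each side. This dose difference was called (0.67, SE 0.16, adjusted p = 0.0082), but not with the processed signals (adjusted p = 0.19) or the Cy5 channel alone (adjusted p = 0.14). The same 54 µg arrays were not called against controls (0.38, SE 0.16, adjusted p = 0.17), whose 5 arrays lay between 2.84 and 3.04. The 18 µg group averaged 2.67 ± 0.27 and the controls 2.96 ± 0.08 (SD, n = 5 each), a difference that was not called (-0.29, adjusted p = 0.5) between groups that overlap. Tnfaip2, a gene induced by tumour necrosis factor in endothelium, was not called in any of the 15 comparisons. Its 54 µg means were -0.80 ± 0.19 with NRCWE-043, -0.94 ± 0.27 with NRCWE-044 and -0.76 ± 0.28 with NRCWE-045, against -0.95 ± 0.17 in controls (SD, n = 5 each), and its second probe was not called either.

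**Figure D3:**
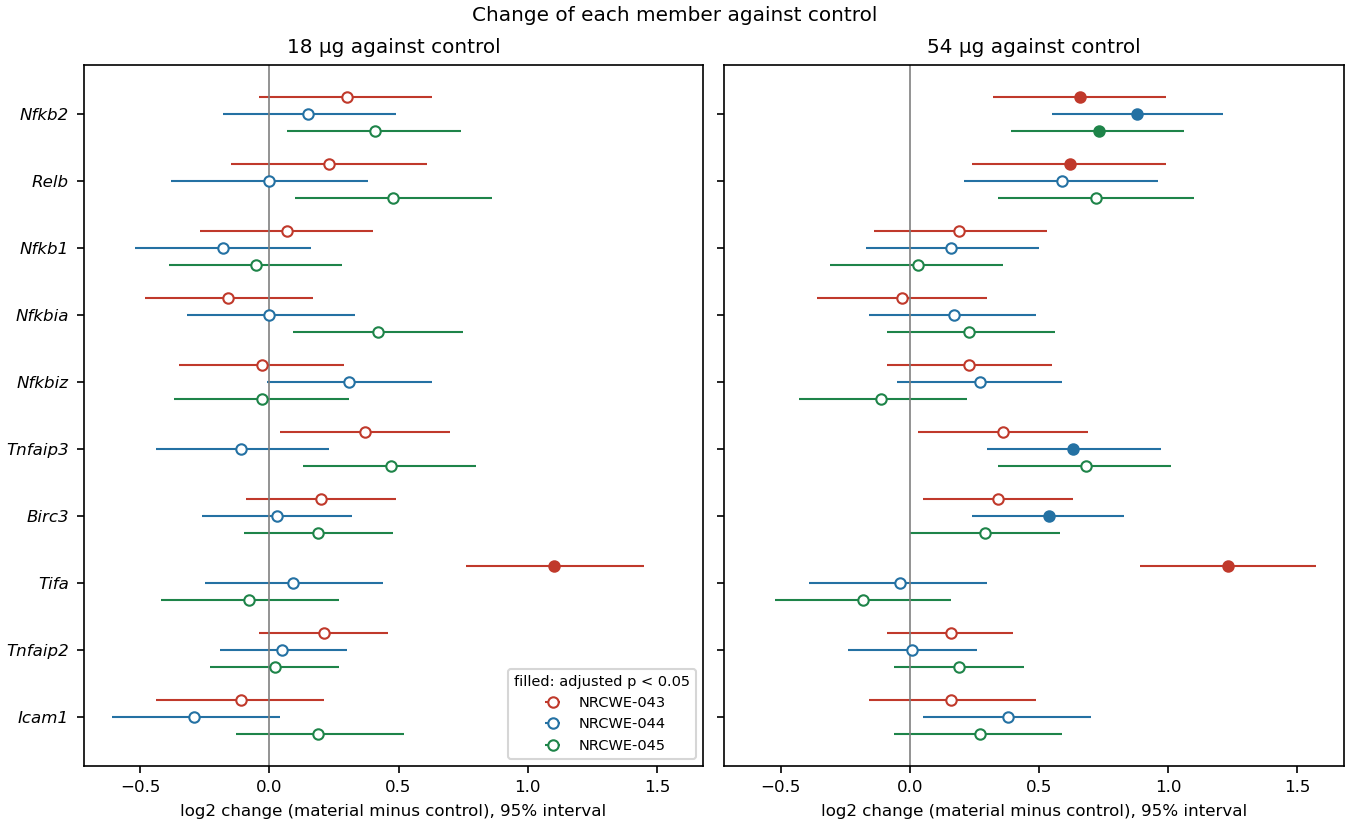
Log2 change of each member (rows) against control at 18 µg (left) and 54 µg (right), with 95% intervals from the limma fit, coloured by material and filled where the adjusted p is under 0.05. At 54 µg Nfkb2 is filled for all 3 materials, and Tifa is filled for NRCWE-043 at both doses.

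Set dose against dose, only NRCWE-044 gave calls. At 54 against 18 µg, 4 of its 10 members were higher (Nfkb2, Tnfaip3, Birc3 and Icam1), where 4.82% of all features were. For Nfkb2 the step was 0.73 (SE 0.16, adjusted p = 0.0048). Relb gave 0.59 (adjusted p = 0.051) and was called under 8 of the 21 alternatives. No member was called between doses of NRCWE-043 or NRCWE-045, where 0.924% and 0% of all features were called higher, and where 2 and 0 members passed an unadjusted p under 0.05, beside 14.6% and 3.81% of all features. Whether the dose step differed between materials was tested directly for the 3 pairs of materials. Limma called 0 members there, and 0% of all features, with 1, 0 and 2 members at an unadjusted p under 0.05, beside 3.21%, 3.6% and 4.48% of all features. The largest such difference was in Tnfaip3, whose step was larger by 0.75 (SE 0.23, adjusted p = 1) with NRCWE-044 than with NRCWE-043. A call in one material and not in another therefore shows no difference between them, except where the materials themselves were compared.

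Between materials at a matched dose, 6 pairs were compared, each adjusted over all features. Tifa was the only member called lower in NRCWE-044 or NRCWE-045 than in NRCWE-043, where at 54 µg 2.17% and 1.51% and at 18 µg 5.46% and 2.53% of all features were called lower. At 18 µg, Tnfaip3 lay lower on every NRCWE-044 array than on every NRCWE-043 array, with a difference of -0.48 (SE 0.16, adjusted p = 0.056) that was called with slide (adjusted p = 0.025) or scan day (adjusted p = 0.026) as a fixed block. Nfkbia was the 1 member called higher in NRCWE-045 than in NRCWE-043 at 18 µg, where 6.02% of features were. Between NRCWE-045 and NRCWE-044, no member was called at 54 or 18 µg, where 0% and 0.446% of all features were, with 1 and 4 members at an unadjusted p under 0.05, beside 6.04% and 13.1% of all features. At 54 µg the member furthest from 0 was Nfkbiz, with a difference of -0.38 (95% interval -0.70 to -0.06, adjusted p = 0.7).

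The 7 groups were also put in order of mean level for each member. Of the 60 steps between neighbours in the 10 orders, 5 exceeded the larger SD of the pair, and the widest was the step of 1.01 in Tifa between 18 µg NRCWE-043 and 18 µg NRCWE-044. Nfkb2 was highest in the 3 groups of 54 µg and lowest in controls, and Relb was highest in the same 3 groups. Between these top 3 groups no neighbour differed beyond its SD for either gene. Birc3 was highest in 54 µg NRCWE-044, followed by 54 µg NRCWE-043 with a gap of 0.20 against an SD of 0.19.

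The rest of the pathway was read from 6 lists of upstream, sister and target genes. At 54 µg against control, 5.35%, 3.94% and 0.29% of all features were called higher with the materials in numeric order. The shares of all features called lower were 4.92%, 2.05% and 0.0352%. Of 9 tested ligand genes, 4 were called higher with 54 µg NRCWE-043, 4 with NRCWE-044 and 2 with NRCWE-045, and none lower. Il1b, which encodes the inflammatory cytokine interleukin 1 beta, had 2.54 ± 0.40, 2.20 ± 0.69 and 2.11 ± 0.42 at 54 µg of the 3 materials in numeric order, against 0.81 ± 0.47 in controls (SD, n = 5 each). Its change was 1.74, 1.40 and 1.30 (adjusted p = 0.00017, 0.0027 and 0.038). Tnfsf14, a ligand of the lymphotoxin beta receptor that feeds the non-canonical branch, was higher with NRCWE-043 (0.96, adjusted p = 0.00011) and not called with NRCWE-044 (0.42, adjusted p = 0.099) or NRCWE-045 (0.09, adjusted p = 0.95). Tnfsf13b, the B cell survival factor BAFF, was called with NRCWE-044 (0.88, adjusted p = 0.00055) and NRCWE-045 (0.70, adjusted p = 0.038) and missed the threshold with NRCWE-043 (0.44, adjusted p = 0.063).

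Of 26 receptors and adaptors, 11 were called higher and 1 lower with 54 µg NRCWE-043, 4 higher with NRCWE-044 and 1 higher with NRCWE-045. Myd88, the adaptor of Toll-like and interleukin 1 receptors, was the gene called with all 3 (0.41, 0.59 and 0.42, adjusted p = 0.0029, 0.00014 and 0.038). Cd14, a co-receptor for bacterial lipopolysaccharide, was higher by 0.91 with NRCWE-043 (adjusted p = 0.017) and by 1.48 with NRCWE-044 (adjusted p = 0.00041), and its change with NRCWE-045 was 1.03 (adjusted p = 0.062). Tnfrsf12a, the receptor of the cytokine TWEAK, was called with NRCWE-043 (1.34, adjusted p = 0.00052), and its change was 0.24 with NRCWE-044 and 0.15 with NRCWE-045 (adjusted p = 0.67 and 0.94). Its controls spread from -3.62 to -2.03, below the -1.96 to -1.14 of 54 µg NRCWE-043. Alpk1, named after its values were seen because its kinase acts on the Tifa protein, was higher with 54 µg NRCWE-043 (0.34, SE 0.10, adjusted p = 0.024) and gave 0.08 and 0.13 with the other materials (adjusted p = 0.73 and 0.78).

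None of the 11 kinase genes was called by limma with any material at 54 µg, with 2, 0 and 1 at an unadjusted p under 0.05, beside 23%, 19.5% and 9.4% of all features. The closest were Tab1, which encodes a binding partner of the kinase TAK1 (-0.35 with NRCWE-043, adjusted p = 0.064), Ikbkg, which encodes the regulatory subunit of the IκB kinase complex (0.24 with NRCWE-043, adjusted p = 0.19), and Map3k14, which encodes the non-canonical kinase NIK (0.26 with NRCWE-044, adjusted p = 0.27). Of 9 other subunits and inhibitors, 3 were called higher with NRCWE-043 and 4 with NRCWE-044, and 0 with NRCWE-045. Nfkbid, another atypical IκB gene, was higher by 0.75 and 0.64 with NRCWE-043 and NRCWE-044 (adjusted p = 0.0025 and 0.013), with 0.57 in NRCWE-045 (adjusted p = 0.12). Nfkbie, which encodes the inhibitor IκBε, was higher by 0.97 with NRCWE-044 (adjusted p = 0.0011), and gave 0.50 with NRCWE-043 and 0.74 with NRCWE-045 (adjusted p = 0.08 and 0.062). Ikbip, named for an interaction with the IκB kinase, was higher by 0.43 with NRCWE-043 (adjusted p = 0.0043). Its means were -0.83 ± 0.05 with 54 µg NRCWE-044 and -0.75 ± 0.19 with NRCWE-045, against -1.1 ± 0.19 in controls (SD, n = 5 each).

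Among 15 other feedback genes, 1 was called higher with each of NRCWE-043 and NRCWE-044 and 0 with NRCWE-045. These counts are near the shares of all features called higher, 5.35%, 3.94% and 0.29%. Otud7b, a deubiquitinase gene, was called with NRCWE-043 (0.57, adjusted p = 0.032). Its controls ran from -0.24 to 1.22, which overlaps the 0.35 to 1.23 of 54 µg NRCWE-043. The means were 0.01 ± 0.07 with 54 µg NRCWE-044 and -0.03 ± 0.18 with NRCWE-045, against 0.31 ± 0.55 in controls (SD, n = 5 each). Tnip3, which encodes an A20-binding protein, was called with NRCWE-044 (0.50, adjusted p = 0.011). Its means with 54 µg NRCWE-043 and NRCWE-045, neither called, were 0.06 ± 0.13 and 0.07 ± 0.16. The controls had -0.17 ± 0.16 (SD, n = 5 each). Sharpin, a component of the linear ubiquitin ligase, came next with -0.18 in NRCWE-043 (adjusted p = 0.11). Of 19 other targets, 5 were called higher and 1 lower with NRCWE-043, 6 higher with NRCWE-044 and 0 with NRCWE-045. Ier3, an immediate early gene, was higher by 1.32 with NRCWE-043 (adjusted p = 0.00026) and gave 0.28 and -0.05 with the other materials (adjusted p = 0.56 and 0.98). Its controls ran from -1.1 to 0.25 and 54 µg NRCWE-043 from 0.23 to 1.03, so these groups overlapped. Selp, the platelet and endothelial adhesion molecule P-selectin, was higher by 0.85 with NRCWE-043 (adjusted p = 0.0018) and 0.68 with NRCWE-044 (adjusted p = 0.018). Slc2a6, a sugar transporter gene, was higher by 0.99 and 0.87 in the same groups (adjusted p = 0.0019 and 0.0092). Neither was called with 54 µg NRCWE-045. There Selp had 0.61 ± 0.13, above every control, against -0.02 ± 0.17 in controls. Slc2a6 had -1.01 ± 0.33, against -1.54 ± 0.33 in controls (SD, n = 5 each).

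**Figure D4:**
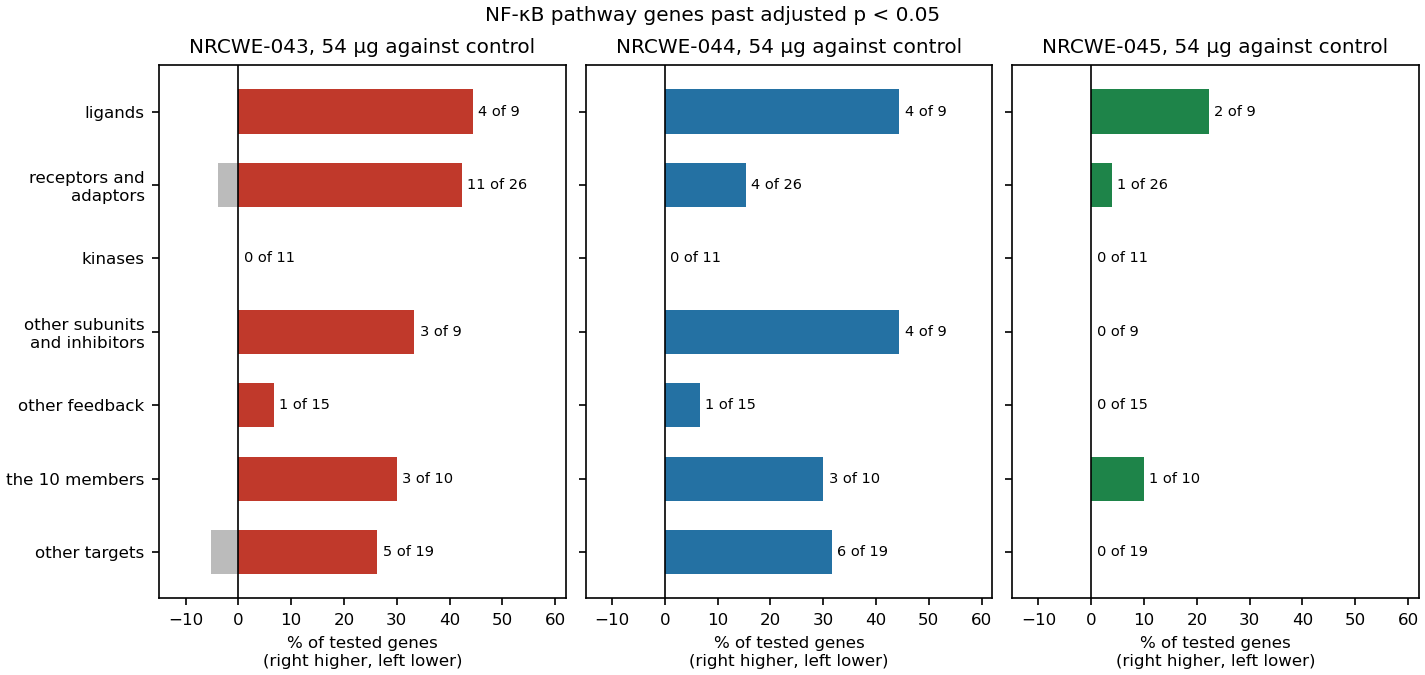
Share of the tested genes of each NF-κB list called higher (right of 0) or lower (left of 0) at 54 µg against control by limma at an adjusted p under 0.05, 1 panel per material, with the number higher of the number tested beside each bar. The ligand list has 4, 4 and 2 of 9 genes higher, and the kinase list has 0 of 11 in each panel. Over all features the shares called higher were 5.35%, 3.94% and 0.29%.

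Leukocyte markers were called in some of the groups in which members were called. Beside the marker counts at 54 µg against control stand the 5.35%, 3.94% and 0.29% of all features called higher, with materials in numeric order. For lower calls these shares were 4.92%, 2.05% and 0.0352%. Of 9 markers of monocytes and interstitial macrophages, 3 were called higher with 54 µg NRCWE-043, 3 with NRCWE-044 and 0 with NRCWE-045, and their mean log2 ratio ran from 1.79 to 2.63, from 1.86 to 2.77 and from 1.52 to 2.10 in these groups, against 1.45 to 1.68 in controls. Of 9 neutrophil markers, 3 were higher and 1 lower with NRCWE-043, 1 higher with NRCWE-044 and 0 with NRCWE-045, with scores of 2.27 to 2.56, 2.01 to 3.04 and 1.53 to 2.99, against 1.15 to 2.80 in controls. All 9 tested monocyte and macrophage markers were above background on all 35 arrays. Between 54 and 18 µg of NRCWE-044, where 4 members were called, 5 monocyte and macrophage markers and 2 neutrophil markers were also called higher at 54 µg. Between doses of NRCWE-043, where 0 members were called, 4 monocyte and macrophage markers and 2 neutrophil markers were higher. Of all features, 4.82% were called higher between doses of NRCWE-044 and 0.924% between doses of NRCWE-043. Of 8 alveolar macrophage markers, 2 were lower with 54 µg NRCWE-043, 2 were higher and 1 lower with 54 µg NRCWE-044, and 3 were higher between doses of NRCWE-044. Of 4 tested club cell markers, 3 were lower with 54 µg NRCWE-043, and of 5 tested alveolar type 1 markers, 2 were higher with 54 µg NRCWE-043 and 1 with 54 µg NRCWE-044. With 18 µg NRCWE-043, where Tifa was called, monocyte and macrophage scores, from 0.92 to 1.73, overlapped the controls. In that group 1 of 5 alveolar type 1 markers was called higher and 1 of 9 neutrophil markers lower, beside 1.34% and 2.86% of all features. Against NRCWE-043, 2 type 1 markers were lower in NRCWE-044 at 18 µg and 1 at 54 µg. In NRCWE-045, 1 was lower at 18 µg and 0 at 54 µg. The part of these cells in the member changes was not tested. The tissue label was checked against markers of alveolar type 2, alveolar type 1 and club cells, whose lowest mean log2 ratios on any array were 5.18, 4.06 and 4.93.

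The genes whose pattern was most like the mean of the members were Nek6, Irf5, Sting1, Casp4 and Noxo1. Their Pearson r with the mean of the 10 standardised members was 0.86, 0.85, 0.84, 0.82 and 0.82 over the 35 arrays, a description of arrays that share groups and slides. The mean does not stand for each member. Pairs of members had a median r of 0.25 (from -0.44 to 0.85), and pairs with Tifa had a median of 0.02. Noxo1, an organiser subunit of a superoxide-producing oxidase, had the steepest changes of the 5, at 1.25, 1.92 and 1.34 with 54 µg of the 3 materials (adjusted p = 0.013, 0.00047 and 0.062). Irf5, an interferon regulatory factor gene, gave 0.99, 0.84 and 0.49 (adjusted p = 0.005, 0.024 and 0.51). Sting1, the sensor adaptor for cytosolic DNA signalling, gave 0.83, 0.97 and 0.78 (adjusted p = 0.014, 0.0066 and 0.12). Casp4, an inflammatory caspase gene, gave 0.73, 0.70 and 0.71 (adjusted p = 0.0045, 0.0093 and 0.052). Nek6, a kinase gene, gave 0.58, 0.61 and 0.34 (adjusted p = 0.018, 0.02 and 0.5). None of the 5 was called at 18 µg of any material. Since the 5 were chosen for their likeness to the members on these same arrays, their changes follow from that choice. They are given as a description only.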

How the data were processed

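RNA from 35 mouse lung samples was hybridised in Cy5 against a common reference RNA in Cy3. The deposited scanner files hold spot and background median intensities that Feature Extraction 11.0.1.1 read from the arrays, per the file headers. The deposited value table holds log2 ratios, with the steps behind them not given in the sources used here. They correlated with the ratios computed here at r of 0.9932 to 0.9986 and served as an alternative. Intensities were corrected with normexp (offset 50) and loess within arrays in limma 3.58.1 (R 4.3.3), without control spots and outlier flags. Tested probes were those that Feature Extraction marked as well above background in the lung channel on 3 or more of the 5 arrays in any group. The brightest tested probe stood for its gene, named through its RefSeq accession (GRCm38.p6 annotation), which gave a symbol to 27235 probes and none to 28446. One fit over all genes and 35 arrays gave 15 comparisons and 3 differences of dose steps, each with Benjamini-Hochberg adjustment and a threshold of 0.05. The fit was also run on simulated data with independent noise on each array. These held no slide or scan day effect and no mislabelled array, so they cannot speak for either.

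The members and gene lists were chosen with earlier results of these data known. From each pathway list, the 3 genes with the smallest adjusted p at 54 µg against control were named. The 5 genes closest to the mean of the standardised members by Pearson correlation were named as well. Alternatives covered background, normalization, filters, probe choice, slide, scan day, the variance model and left-out arrays. The number of arrays limits the precision.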

Additional observations from a re-analysis of the deposited data

Results flagged for a closer look

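There were 70 sets of arrays (10 genes in 7 groups), each of 5 except Nfkbiz in 18 µg NRCWE-045 with 4. In 5 of the 70 sets, 1 array lay far apart from the other 4. Chance alone gives about 1 in 20, so most of these 5 may be chance. Tifa in control replicate 7 was -0.06, where the other controls lay between -1.43 and -1.12. Tifa in replicate 21 of 18 µg NRCWE-044 was -1.26, against -0.83 to -0.74 on the others. Icam1 was 2.03 in replicate 5 of 18 µg NRCWE-043, where the others gave 2.98 to 3.18. Icam1 was 2.98 in replicate 3 of 54 µg NRCWE-043, just under the other 4 at 3.13 to 3.18. Tnfaip3 was 0.85 in replicate 13 of 18 µg NRCWE-045, where the others gave -0.18 to 0.03.

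Effects differed between materials in 5 tested comparisons. Tifa was lower with NRCWE-044 than with NRCWE-043, with a log2 difference of -1.27 at 54 µg and -1.01 at 18 µg. NRCWE-045 gave -1.41 and -1.18 against NRCWE-043 at the same doses. In all 4 comparisons the 5 arrays of each group lay apart from those of the other. Nfkbia was higher by 0.58 with 18 µg NRCWE-045 than with 18 µg NRCWE-043.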

How the results depend on the processing

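No paired analysis was possible because replicate numbers run from 1 to 35 and no 2 groups share one, so slide and scan day, which groups do share, served as blocks instead. None of the called member values changed sign under any alternative, and 256 of 4123 uncalled values did. Median centring left 1 member called with 54 µg NRCWE-043 (Tifa), 0 with NRCWE-044, 0 with NRCWE-045, 0 between doses of NRCWE-044 and 1 between NRCWE-045 and NRCWE-043 at 18 µg (Tifa). It moved the median of all features to 0.12 with 54 µg NRCWE-043 against control, to 0.14 and 0.12 between doses of NRCWE-043 and NRCWE-045, and to -0.18 between NRCWE-044 and NRCWE-043 at 54 µg. For 54 µg NRCWE-045 (1 call as reported), 3 members were called with processed signals, with slide as a random block, with array weights and with the heart score as a covariate, 2 with slide or scan day as a fixed block or with only the compared groups in the fit, and 0 with Cy5 alone or scale normalization. With 54 µg NRCWE-044, array weights gave 5. With 18 µg NRCWE-043, processed signals gave 2 and only the compared groups 0. Between doses of NRCWE-044, Cy5 alone gave 2. Between NRCWE-044 and NRCWE-043 at 18 µg, 2 were called (Tifa and Tnfaip3) with a stricter filter on dim probes, each slide or scan day block, the variance trend and the heart covariate. Between NRCWE-045 and NRCWE-043 at 18 µg, 1 (Tifa) was left with processed signals, Cy5 alone and a 1.5-fold threshold. Between NRCWE-045 and NRCWE-044 at 18 µg, processed signals gave 1 (Tnfaip3) and slide as a fixed block 1 (Icam1). Leaving out 1 array at a time gave 2 to 3 calls with 54 µg NRCWE-043, 1 (without control replicate 7) to 4 with NRCWE-044, 0 to 3 (without control replicate 29) with NRCWE-045 and 3 to 4 between doses of NRCWE-044, and 1 to 2 between NRCWE-044 or NRCWE-045 and NRCWE-043 at 18 µg. The cause of these shifts was not tested. Over all features, calls ranged from 525 to 3600 with 54 µg NRCWE-043 (2622 as reported), from 43 to 2392 with NRCWE-044 (1528) and from 0 to 339 with NRCWE-045 (83). Tifa was above background on 34 of 35 arrays and each other member on all 35.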
